A study of Mus musculus with 20 samples.

Results

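The neighbourhoods of Fgf4 and Utf1, a pair of mouse genes known for downstream enhancers bound by Sox2 and Oct4, were followed across 18 peak lists of chromatin immunoprecipitation and sequencing. Members were all peaks with a midpoint on chromosome 7 between 152000000 and 152100000 (the Fgf4 window) or between 147090000 and 147170000 (the Utf1 window), in build mm9. The rule uses position and no peak height, though the windows were chosen with earlier results of these data known. There were 376 member peaks among 765133 in all, 227 in the Fgf4 window and 149 in the Utf1 window. In these coordinates Fgf4 lies at about 152.047 to 152.051 Mb and Utf1 at about 147.130 Mb. Both genes are on the forward strand (Entrez Gene 14175 for Fgf4 and 22286 for Utf1). In the RefSeq gene table for GRCm38.p6, used for gene order only, Fgf4 stands between Fgf3 and Fgf15, and Utf1 between Kndc1 and Spef1l.

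Sox2 binds DNA through an HMG box and Oct4 (Pou5f1) through POU domains, and in pluripotent cells the pair often occupy a composite element made of a Sox and an Oct motif side by side. Fgf4 encodes a secreted fibroblast growth factor, made by pluripotent cells, that signals towards primitive endoderm and away from the naive state. Its classic enhancer lies in the last exon, after the stop codon. Utf1 encodes a chromatin-associated protein of pluripotent cells, and its classic enhancer lies downstream of the gene. Sox17, a relative of Sox2, is a regulator of primitive endoderm.

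The ES libraries came from KH2 mouse embryonic stem (ES) cells given doxycycline at 1 µg/ml, which induced a V5-tagged Sox2, Sox17, Sox2KE or Sox17EK. The mutants swap a residue that is lysine in Sox2 and Sox17EK (the lysine proteins) and glutamate in Sox17 and Sox2KE (the glutamate proteins). All ES groups therefore shared the doxycycline and carried an induced protein beside the endogenous factors of the cells, and no ES list without an induced Sox protein was analysed here. Each Sox protein had 2 ES libraries, A and B, and Oct4 had 2 in each of the Sox2, Sox17EK and Sox2KE lines and 1 in the Sox17 line. F9 embryonal carcinoma cells gave 1 Oct4 library untreated, and after 1 µM retinoic acid (RA), which turns them towards primitive endoderm, 1 Oct4 and 1 Sox17 library. For ES cells the labels name V5 for the Sox2, Sox2KE and Sox17EK libraries, Sox17 and V5 for the Sox17 libraries, and Oct4 and V5 for the Oct4 libraries, so peaks of the tagged Sox protein and of Oct4 cannot be told apart in an Oct4 ES list. The F9 libraries name Oct4 alone or Sox17 alone. Each protein was expressed in 1 line, and nothing in the labels says that A and B came from separate cultures. P-values below therefore measure only the spread between these libraries, which may be technical. No expression was measured, so the labelled cell types could not be checked by marker genes.

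The lists held between 5836 peaks (Sox17 ES B) and 84196 peaks (Oct4 F9+RA), each with a score by the authors' peak caller that ran from about 50 upwards and was often tied at 3100. Scores depend on a depth that is unknown here, so each peak is also given its place, its rank by score within its own list, where 1 is the strongest peak and ties share their mean rank. A place is easier to reach in a short list, and the Sox17 ES lists were the shortest (10301 peaks in A and 5836 in B). Overlapping peaks of all lists merged into 190862 sites, of which 29 fell in the Fgf4 window and 27 in the Utf1 window. Because single wide peaks joined neighbouring regions, regions were also defined, after the data were seen, as bases covered by peaks of at least 6 of the 18 libraries. There were 46322 such shared regions in the genome, 15 in the Fgf4 window and 8 in the Utf1 window.

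Peaks covered the given start of both genes, so the 250 bases before each start are shown here, 5′ to 3′, from RefSeq in GRCm38.p6. Capitals mark GGGCGG or its reverse complement CCGCCC, the GC box, which was added to the search after these sequences were seen. The Fgf4 promoter is chr7:144861136-144861385 and the Utf1 promoter chr7:139943606-139943855, both on the plus strand.
Fgf4: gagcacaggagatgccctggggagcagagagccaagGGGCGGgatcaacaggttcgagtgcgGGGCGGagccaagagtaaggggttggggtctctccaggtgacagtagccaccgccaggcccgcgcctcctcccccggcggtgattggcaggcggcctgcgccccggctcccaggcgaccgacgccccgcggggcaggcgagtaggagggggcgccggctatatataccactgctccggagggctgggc
Utf1: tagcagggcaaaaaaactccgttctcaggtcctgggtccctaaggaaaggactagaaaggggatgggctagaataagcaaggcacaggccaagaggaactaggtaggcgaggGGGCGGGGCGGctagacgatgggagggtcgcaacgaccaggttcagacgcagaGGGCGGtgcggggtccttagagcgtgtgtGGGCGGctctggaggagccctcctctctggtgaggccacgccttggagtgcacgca
The Fgf4 promoter had a GC content of 71.2% and 21 CpG pairs, and the Utf1 promoter 61.6% and 14. The medians over 32851 mouse promoters of the same length were 52.4% and 6. The GC box was found 2 times before Fgf4 and 4 times before Utf1, where a pair of matches overlapped by a base, and 32.7% of all promoters held it on either strand. No match to the Sox motifs CATTGT (in 10.7% of promoters) and CTTTGT (16.5%) or to the Oct motifs ATGCAAA (4.12%) and ATGCTAA (2.56%) was found on either strand of either window. That says only that these letters are not in these 250 bases.

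At Utf1, the shared region with peaks in the most libraries, 15 of 18, lay just downstream of the gene, at chr7:147131025-147132576. Peaks of the lysine forms Sox2 and Sox17EK stood there in all 4 libraries, and Sox17EK was near the top of its lists. Sox2 scored 353 in A and 186 in B, at places 2896.5 and 5410. Sox17EK scored 1212 and 589, at places 318 and 309. Sox2KE had no peak in A and 1 of score 50.5 at place 71124 of 71693 in B, next to the end of that list. Sox17 had 1 peak of score 132 at place 2320 in A and none in B. That Sox17 peak was 1 wide interval, chr7:147130272-147132184, which also reached over the gene's start. All 4 lysine libraries placed the region among their 5836 strongest peaks, and 1 of the 4 glutamate libraries did. The region was picked for its breadth, and the share of the genome's regions with such a count was not computed.

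Oct4 peaks covered the Utf1 downstream region in all 7 ES libraries. In the Sox2 line Oct4 scored 3100 in A (place 428.5) and 447 in B (place 1967). Its scores with Sox17EK were 3100 (place 494.5) and 3078 (place 109). In the Sox2KE line it scored 368 (place 8974) and 259 (place 8750), and in the Sox17 line 829 (place 920). The 2 Sox2KE libraries stood apart, later than the other 5, while the single Sox17 library lay among the lysine lines, so the lysine and glutamate groups overlapped. The 3100 of the Sox2 line came from 1 interval, chr7:147129484-147133287, that spanned both the start and the downstream region.

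Lists were compared between lysine and glutamate proteins after they were cut to the length of the shortest list compared, 5836 peaks for the Sox proteins and 32848 for Oct4, with an absent peak set 1 place past the end. At the Utf1 downstream region the lysine Sox libraries were placed 4.16-fold earlier in geometric mean (difference -0.62 on the log10 scale, exact two-sided permutation test over libraries, n = 4 and 4, p = 0.171, Benjamini-Hochberg adjusted p = 0.939 over 18091 regions). Oct4 was placed 9.02-fold earlier in the lysine lines (-0.96, exact permutation p = 0.0857, n = 4 and 3, adjusted p = 0.479 over 44585 regions). Neither passed the threshold, and the size moved with the lists compared. For the Sox proteins it was 12.0-fold on whole lists, 21.5-fold in longer lists without the Sox17 ES libraries, 1.79-fold among the 1000 strongest peaks and 2.71- to 7.05-fold with a library left out. When a peak counted only with its midpoint within 200 bp, the Sox difference was -0.72 (exact permutation p = 0.0286, unadjusted, as low as 4 against 4 libraries can go) and the Oct4 difference -0.88 (exact permutation p = 0.429). For Oct4 it was 2.50-fold among the 1000 strongest peaks and 5.58- to 19.2-fold with a library left out, the highest without the Sox17 line. Over the whole Utf1 site merged from both regions, chr7:147129341-147133343, which had peaks in 16 of 18 libraries, the differences were -0.62 for the Sox proteins (p = 0.171, adjusted p = 1, exact permutation) and -0.94 for Oct4 (p = 0.0857, adjusted p = 0.612, exact permutation). With midpoints these became -0.40 (exact permutation p = 0.143) and -0.071 (exact permutation p = 1), so the 8.71-fold of Oct4 fell to 1.18-fold. On whole lists the Sox difference was 9.69-fold. A separation of all lysine from all glutamate libraries, which neither main site showed in either comparison, was found at 3.98% of merged sites with lysine first and 0.753% with glutamate first for the Sox proteins, and at 4.48% and 4.06% for Oct4. Only 2.06% of all merged sites had peaks in 16 or more libraries, a share that rises with the width of a site.

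The region over the Utf1 start, chr7:147129484-147130924, had weaker and later Sox peaks than the downstream region in the lysine lists. Sox2 had no peak there in either library, and Sox17EK scored 128 (place 9362) and 122 (place 6383). Sox2KE had none in A and scored 158 in B (place 30278), earlier than its downstream peak in the same list. Oct4 covered the start in every ES library. The separate peaks scored 86.2 in B of the Sox2 line (place 20176), 530 and 285 in the 2 Sox17EK libraries, 376 and 276 in those of Sox2KE, and 109 in the Sox17 line (place 17747). In the Sox2KE line, the start and the downstream region had nearly equal places, 8687 and 8974 in A and 8136.5 and 8750 in B. In the Sox17EK line they were far apart, with places 12053 and 9372 at the start against 494.5 and 109 downstream.

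**Figure D1:**
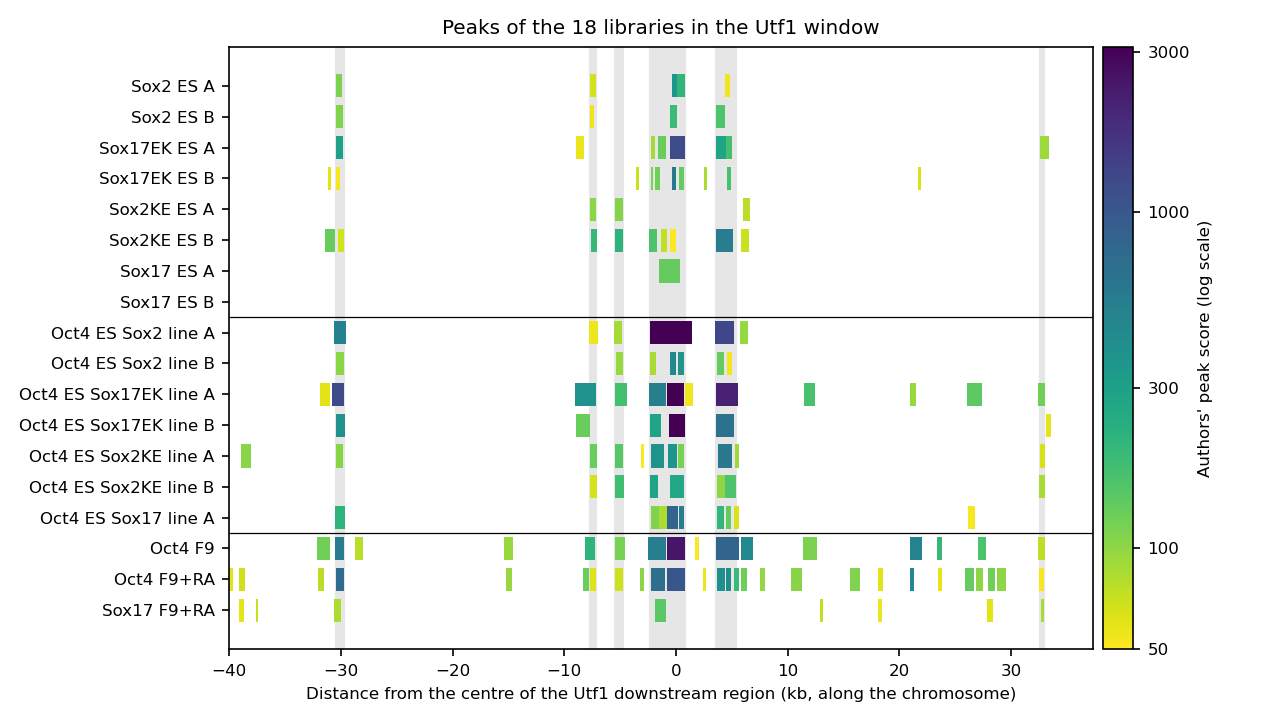
Peaks of the 18 libraries in the Utf1 window. Each bar is 1 peak, drawn at its distance in kb from the centre of the Utf1 downstream region and coloured by score on a log scale; grey bands are the 8 shared regions, and lines part the Sox ES, Oct4 ES and F9 libraries. The darkest bars stand at the centre in the Oct4 lists of the Sox2 line A, of the Sox17EK line A and B and of F9 cells. Oct4 in the Sox2 line B (447) is paler there than in the Sox17 line (829). Sox17 ES B has no peak in the window.

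The other Utf1 regions had fewer libraries. The region 4.37 kb further downstream, chr7:147135425-147136912, had peaks in 14 libraries, and all 4 lysine Sox libraries had one. Sox2 scored 54.8 and 156, Sox17EK 277 and 166, and Sox2KE scored 546 in B alone, above its 50.5 at the downstream region, while neither Sox17 library had a peak. Oct4 scored between 133 and 2108 in the lysine lines and between 159 and 597 in the glutamate lines. Next to it, chr7:147137064-147137215 had peaks of 6 Oct4 libraries only, 3 of them wide peaks shared with its neighbour. The region 30.1 kb upstream, chr7:147101332-147102075, also had peaks in all 4 lysine Sox libraries, with scores from 52.9 to 303, and in 1 of 4 glutamate libraries, Sox2KE B, at 66.2. Oct4 had a peak there in all 4 lysine-line libraries (102 to 1220) and in 2 of the 3 glutamate-line libraries (105 and 216). The genome's share of such counts by presence was not computed, so they are description only. In lists cut to 5836 peaks, 2 lysine Sox libraries had a peak at the region 4.37 kb downstream and 1 at that 30.1 kb upstream. No glutamate library did at either. The lysine libraries were placed 1.25-fold earlier at the former (-0.098, exact permutation p = 0.429, n = 4 and 4) and 1.14-fold at the latter (-0.057). The groups overlapped at both. Sox17 ES A and B had peaks at only 20.3% and 10.4% of the genome's shared regions.

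The other upstream regions differed in which Sox protein had a peak. At chr7:147126335-147127064, Sox2KE scored 108 in A (place 14551) and 215 in B (place 23571.5), and no other Sox library had a peak. This was the earliest Sox2KE A peak of the Utf1 window. At chr7:147124074-147124630 both Sox2 (66.6 and 55.7) and both Sox2KE libraries (102 and 196) had a peak, and no Sox17EK or Sox17 library did, a pattern shared by 8.01% of the genome's regions. The most distant region, chr7:147164453-147164812, had a Sox peak in Sox17EK A alone (92.9), together with peaks of 3 Oct4 ES libraries and all 3 F9 libraries.

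The Fgf4 window was more spread out. The site found in the most libraries was not at the gene's end but just past it, at chr7:152052792-152054046, with a peak in 17 of 18 libraries. This site was picked for its breadth, so that breadth is no separate result. A breadth of 17 or more was reached by 1.15% of all merged sites, of which 37.5% had peaks in 3 or more libraries. Among shared regions, which have peaks in at least 6 libraries by definition, 4.35% were as broad. Of the 15 shared regions, those at the gene's end and around the distal site below had peaks in 16 and 15 libraries.

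The 3′ region of Fgf4, chr7:152049298-152051547, overlaps the given end of the gene. Sox2 scored 302 in A (place 3681) and 107 in B (place 10405), and Sox2KE scored 244 (place 5290) and 687 (place 5385). Sox17EK scored 63.8 (place 21077.5) and 79.3 (place 17452), later in its lists than any Sox2 or Sox2KE library. Sox17 had a peak of 138 at place 2158 of a short list in A and none in B. Here the order followed no split by lysine and glutamate. The difference was 0.077 on the log10 scale for the Sox proteins (exact permutation p = 0.543, n = 4 and 4), the lysine libraries placed 1.20-fold later, and 2.50-fold later on whole lists (exact permutation p = 0.114).

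Oct4 had a peak at the Fgf4 3′ region in all 7 ES libraries. It scored 1246 and 349 in the Sox2 line (places 3654 and 3171) and 1299 and 468 in the Sox17EK line (places 3922 and 4952). It scored 395 and 237 in the Sox2KE line (places 8116.5 and 9609) and 369 in the Sox17 line (place 3761.5). As at Utf1, both Sox2KE libraries were later than the other 5 and the Sox17 library was not. Oct4 was placed 1.72-fold earlier in the lysine lines (-0.23, exact permutation p = 0.143, n = 4 and 3). With midpoints within 200 bp in place of overlap the sign turned (0.15, exact permutation p = 0.83).

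**Figure D2:**
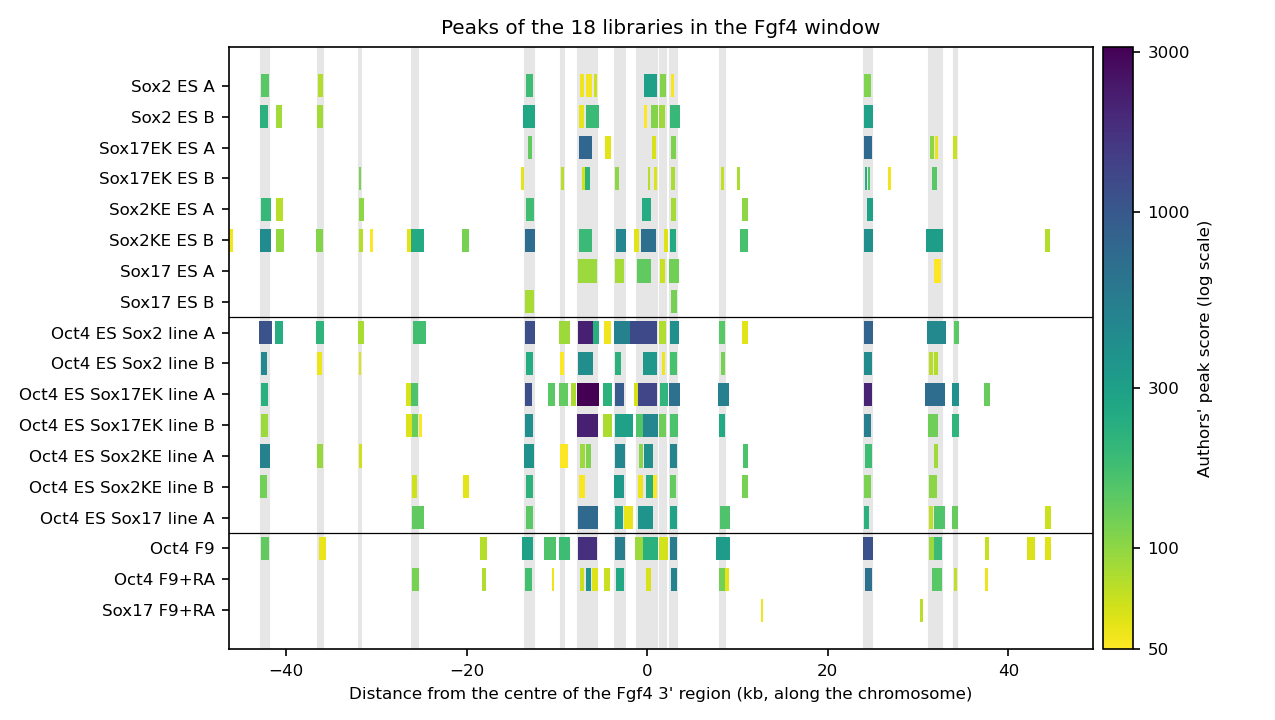
Peaks of the 18 libraries in the Fgf4 window. Bars are peaks at their distance in kb from the centre of the Fgf4 3′ region, coloured by score on a log scale, with the 15 shared regions in grey. The darkest bars lie 6.57 kb upstream, in the Oct4 lists of the Sox17EK line A and B and the Sox2 line A. Next come Oct4 in the Sox17EK line A at 24.5 kb past the centre (2041) and in F9 cells at 6.57 kb upstream (1753). Oct4 in the Sox2 line B is paler at 6.57 kb upstream (419) than in the Sox17 line (764). The Sox17 F9+RA list has 2 weak peaks, outside every grey band.

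Upstream of Fgf4, the region chr7:152042788-152044922 held the highest scores of the window. Oct4 scored 3100 and 2173 in the Sox17EK line (places 494.5 and 296), 2144 and 419 in the Sox2 line (places 1548 and 2219) and 764 in the Sox17 line (place 1081). In the Sox2KE line it scored 110 and 52.1, at places 29212 and 31656. The 2 Sox2KE libraries were again the last of the 7, by a wide margin. The genome's share of regions with both of them last was not computed, and the regions were chosen after the data were seen. Among the Sox libraries, both of Sox17EK were placed before all others. Sox17EK scored 809 (place 761) and 222 (place 2162), and Sox2 scored 67.8 (place 22352) and 190 (place 5270). Sox2KE had no peak in A and 188 in B (place 26362), and Sox17 scored 93.2 in A (place 4212.5) with no peak in B. Placement in the lysine lines was 11.9-fold earlier for Oct4 (-1.07, exact permutation p = 0.114, n = 4 and 3, adjusted p = 0.479) and 2.02-fold earlier for the Sox proteins (-0.30, exact permutation p = 0.257, n = 4 and 4). With midpoints the Oct4 value was 2.86-fold (exact permutation p = 0.657) and the Sox value 1.18-fold. Oct4 was 1.62-fold earlier among the 1000 strongest peaks and 6.67- to 36.1-fold with a library left out, the highest without the Sox17 line, and the Sox value was 1.33-fold without Sox17EK A and 6.41-fold in longer lists without Sox17 ES. The groups overlapped in both comparisons, since Sox17 A and the Oct4 library of the Sox17 line stood among the lysine libraries.

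The region over the Fgf4 start, chr7:152046853-152047952, was mostly an Oct4 region. Oct4 covered it in all 7 ES libraries with scores from 221 to 957, at places from 5074 to 11466.5. The Sox2KE line was not last here. Its Oct4 libraries (places 6517 and 6483) came before those of the Sox2 line (11466.5 and 6859) and Sox17EK B (8847). They came after Sox17EK A (5987) and the Sox17 line (5074). Among the Sox libraries Sox17EK B (101), Sox2KE B (465) and Sox17 A (87.7) had a peak, and both Sox2 libraries had none, as at the Utf1 start.

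At the downstream site of Fgf4, the one found in 17 libraries, scores were moderate throughout. Sox2 scored 52.9 and 194 (places 29923.5 and 5102), Sox17EK 113 and 84.1 (places 10732.5 and 15382.5), Sox2KE 87.4 and 251 (places 18186 and 20440) and Sox17 122 and 119 (places 2648.5 and 1194). The peak of Sox17 B was its stronger one of the 2 it had in either window. Oct4 scored 398 and 166 with Sox2, 681 and 160 with Sox17EK, 472 and 135 with Sox2KE and 282 with Sox17, at places from 5639 to 17911.5. No order by line was visible, and the lines' ranges overlapped. In lists of equal length the lysine Sox libraries were placed 1.75-fold later (0.24, exact permutation p = 0.429, n = 4 and 4, adjusted p = 1). Oct4 was placed 1.53-fold later in the lysine lines (0.18, exact permutation p = 0.314, n = 4 and 3, adjusted p = 0.675), without a separation of the groups. Within the 5836 strongest peaks, 1 lysine and 2 glutamate libraries had a peak there. With the short Sox17 lists left out and the others cut at 23924 peaks, the sign of the Sox difference turned (-0.21, exact permutation p = 0.4).

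The distal region, chr7:152074448-152075332, lay 24.5 kb past the centre of the 3′ region. All 4 lysine and both Sox2KE libraries had a peak, and neither Sox17 library did. Over the genome's shared regions, Sox17 ES A and B had peaks at 20.3% and 10.4%. Sox2 scored 111 (place 13053) and 289 (place 2805), Sox17EK 755 (place 869) and 244 (place 1852.5), and Sox2KE 295 (place 3948.5) and 400 (place 12201.5). Oct4 scored 831 and 428 in the Sox2 line (places 6371 and 2135) and 2041 and 551 in the Sox17EK line (places 1984 and 3922). It scored 183 and 113 in the Sox2KE line (places 19183 and 18075) and 222 in the Sox17 line (place 7826). Every lysine-line Oct4 library was placed earlier than every glutamate-line one, by 4.35-fold in geometric mean (-0.64, exact permutation p = 0.0571, n = 4 and 3, adjusted p = 0.471). The Sox difference was 2.34-fold (-0.37, exact permutation p = 0.143, n = 4 and 4). With a library left out it ranged from -0.51 (without Sox2 A, exact permutation p = 0.0286, unadjusted) to -0.23 (without Sox17EK A, 1.70-fold, exact permutation p = 0.257). It was -0.28 with midpoints and 1.04-fold among the 1000 strongest peaks.

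The region 13 kb upstream of the 3′ region, chr7:152036914-152037902, was the other one whose Oct4 groups did not overlap. Oct4 scored 1156 and 245 in the Sox2 line and 1157 and 403 in the Sox17EK line, at places from 4100 to 6118. It scored 378 and 217 in the Sox2KE line and 143 in the Sox17 line, at places from 8608.5 to 13307.5. The difference was small, 2.09-fold (-0.32), with an exact permutation p of 0.0286, as low as 4 against 3 libraries can go, and an adjusted p of 0.394. Leaving out any 1 library left p between 0.0667 and 0.1, each the smallest its design allows, and the replicate block, at 0.0556, also lost the pass. Sox2 (182 and 267), Sox17EK A (136), Sox2KE (176 and 724) and Sox17 B (85.7) had Sox peaks there, without an order by residue (0.060, exact permutation p = 0.714).

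In all, 2 of the 15 Fgf4 regions had every lysine-line Oct4 library placed before every glutamate-line one, against 6.41% of 44585 regions over the genome, and 0 had the opposite order, against 5.49%. At Utf1 none of 8 regions had either order. For the Sox proteins, 8 Fgf4 and 4 Utf1 regions had a peak within the 5836 strongest of any list and could be compared. None of these 12 separated lysine from glutamate libraries, against a genome-wide 4.37% with all lysine and 0.807% with all glutamate libraries first. The share for Oct4 at Fgf4 rests on 2 regions, and the 12 Sox comparisons are too few for a share of that size to show. No region or merged site of the genome had an adjusted p under 0.05 in these exact permutation tests, the only tool run. The lowest p these tests can give is 0.0286, and adjustment brings that under 0.05 only if most regions reach it. An unadjusted p under 0.05 was found at 5.18% of regions for the Sox proteins and 7.26% for Oct4. The adjusted p-values here therefore could not pass, and they do not show that differences were absent. Before adjustment 937 of 18091 regions passed for the Sox proteins and 3235 of 44585 for Oct4, and the region 13 kb upstream of the Fgf4 3′ region was the only one of either window among them.

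**Figure D3:**
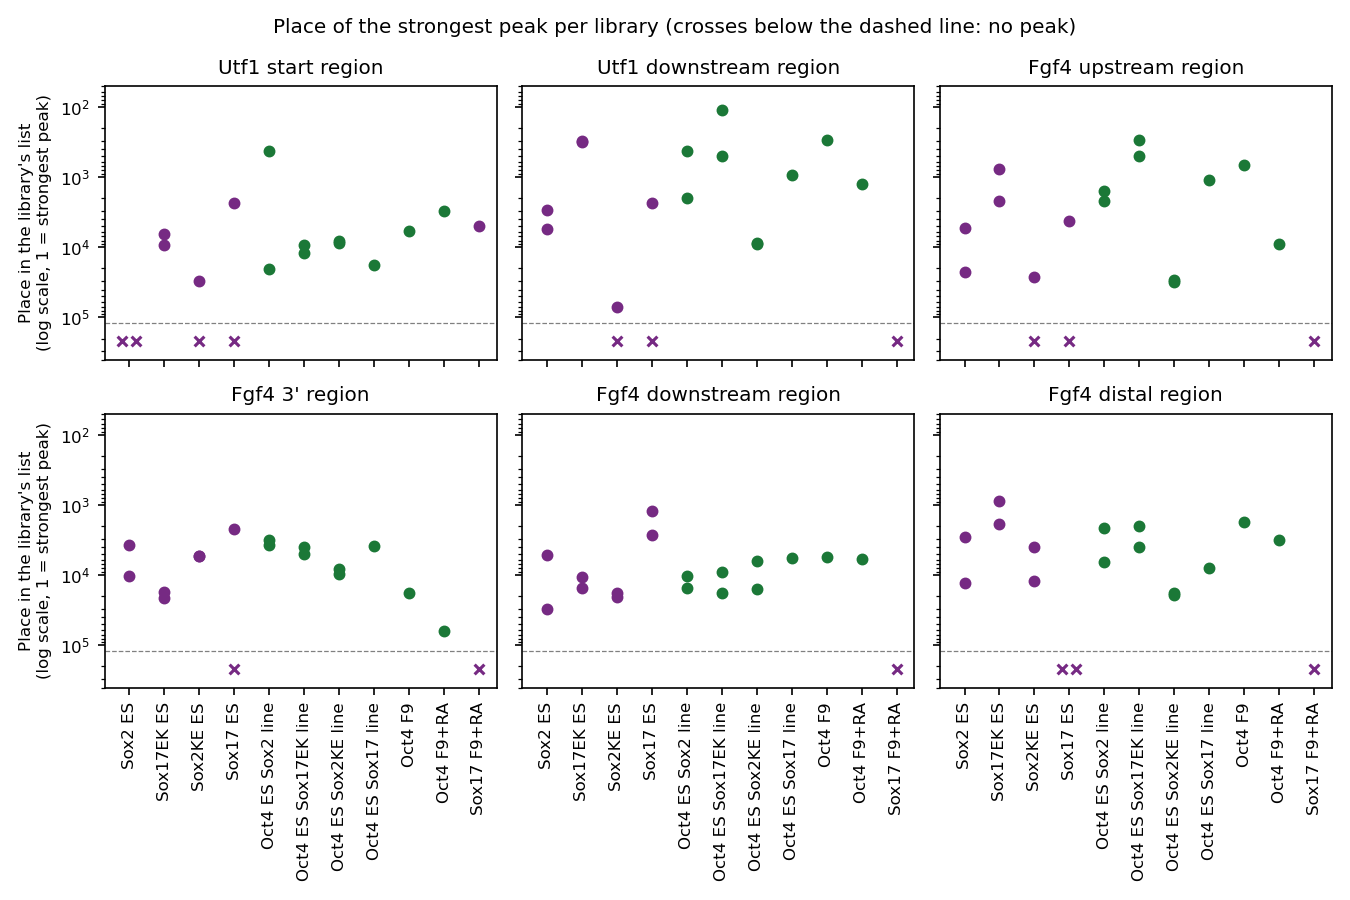
Place of the strongest peak of each library (y axis, log scale, 1 at the top end) at the Utf1 start and downstream regions and at the upstream, 3′, downstream and distal regions of Fgf4. Each point is 1 library, Sox libraries in purple and Oct4 libraries in green, and crosses below the dashed line are libraries without a peak. Oct4 of the Sox2KE line is the last of the ES Oct4 groups at the Utf1 downstream region and at the upstream, 3′ and distal regions of Fgf4. It lies within the range of the others at the downstream region of Fgf4. At the Utf1 start both of its libraries come before every other ES Oct4 library except the Sox2 line A.

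The other Fgf4 regions had fewer libraries. The region 42.4 kb upstream, chr7:152007604-152008483, had peaks of both Sox2 (145 and 222) and both Sox2KE libraries (195 and 433) and of no Sox17EK or Sox17 library, again the pattern of 8.01% of the genome's regions. Oct4 scored 1086 and 445 in the Sox2 line, 513 and 120 in the Sox2KE line and 225 and 93.5 in the Sox17EK line, where the ranges overlapped, and had no peak in the Sox17 line. The nearby chr7:152013969-152014508 showed Sox2 (79.9 and 89.2) and Sox2KE B (107) alone among the Sox libraries. At chr7:152018510-152018681 Sox17EK B, both Sox2KE libraries and 3 Oct4 ES libraries had weak peaks, the highest of score 114. At chr7:152024424-152025058 the only Sox peak was that of Sox2KE B (253), with Oct4 peaks from 68.9 to 175 in 5 ES libraries.

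Nearer the gene, chr7:152040926-152041225 had 6 peaks, none above 184 (Oct4 F9). At chr7:152051803-152052485, between the 3′ and the downstream regions, Sox2 (108 and 90.9), Sox2KE B (62.5) and Sox17 A (70.4) had Sox peaks, and Oct4 had peaks in all 4 lysine-line libraries (82.4, 56.0, 209 and 125) and in none of the 3 glutamate-line ones. A pattern of this kind by presence was found at 2.33% of the genome's regions and at 1 of the 15 here. In lists of equal length the groups overlapped (1.17-fold, exact permutation p = 0.143, adjusted p = 0.479). At chr7:152058450-152059057 Oct4 scored from 117 to 518 in the 4 lysine-line libraries and 159 in the Sox17 line, without a peak in the Sox2KE line, and Sox17EK B (72.6) was the only Sox library. Past the distal region, chr7:152081642-152083109 had peaks in 13 libraries with scores up to 722, and chr7:152084391-152084743 in 6, up to 394, both highest for Oct4 in the Sox17EK line A. The Sox libraries with a peak at the first of these were Sox17EK A and B (102 and 146), Sox2KE B (316) and Sox17 A (50.5).

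Merged sites outside the shared regions were weak in the main. At Fgf4, chr7:152009233-152010187 had peaks of 4 libraries with a highest score of 242 (Oct4 in the Sox2 line A). A site at chr7:152038946-152040327 had 3, up to 159 (Oct4 F9), and chr7:152045495-152046494 had 5, up to 218 (Oct4 in the Sox17EK line A). At chr7:152060361-152061624 both Sox2KE libraries (100.01 and 166) and both Oct4 libraries of the same line (162 and 116) had a peak, with Sox17EK B at 84.5 and the Oct4 library A of the Sox2 line at 60.5. The sites chr7:152087740-152088375 and chr7:152094503-152095200 had 3 libraries each, up to 131 and 80.2. The 9 Fgf4 sites found in 1 or 2 libraries had highest scores from 51.6 to 117.

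At Utf1, chr7:147092645-147093764 had 3 weak peaks, up to 104. The site chr7:147137508-147138738 had 5, of which Oct4 F9 scored highest (443), with both Sox2KE libraries at 76.1 and 69.6. At chr7:147152727-147153862 Oct4 scored 490 in F9 and 470 in F9+RA cells, against 95.9 in the only Oct4 ES library with a peak. At chr7:147157713-147159583, 4 Oct4 libraries had peaks up to 161. The 17 Utf1 sites found in 1 or 2 libraries had highest scores from 51.2 to 199. Around the windows, the nearest peaks outside scored 50.8 and 68.5 at Fgf4 and 88.0 and 67.1 at Utf1, and the outermost members inside scored 53.9 and 61.2, and 59.4 and 59.6.

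Where a Sox library and the Oct4 library of the same line and letter both had a peak, the midpoints of the highest-scoring peak of each in a region were compared. At the Fgf4 downstream site the 7 pairs lay 11 to 166 bp apart (median 65.5). At the distal region the 6 pairs lay 10.5 to 170 bp apart (median 91.8). At the Utf1 downstream region the 6 pairs lay 40 to 324 bp apart (median 270.3), at the Fgf4 3′ region the 7 pairs 104 to 772 bp (median 262) and at the upstream region the 6 pairs 16 to 1117 bp (median 331). Of these 5, the regions of 826 and 885 bp had the closest midpoints, and the other 3 were 1552 to 2250 bp long. Because the Oct4 ES libraries also name V5, these distances do not separate the proteins.

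In F9 cells Oct4 occupied the Utf1 downstream region strongly, with a score of 2470 at place 298, and after RA it scored 1032 at place 1245, 4.18-fold later. The peak at the Utf1 start went the other way, from 540 (place 5776) to 683 (place 3009.5), a place ratio of 0.521, as did the region far upstream of Utf1, from 563 to 738 (ratio 0.477). At Fgf4 the upstream region went from 1753 (place 677) to 375 (place 8849), 13.1-fold later, and the 3′ region from 222 (place 18185) to 64.5 (place 62869.5), 3.46-fold later. The downstream site of Fgf4 scored 561 and 486, at nearly the same place (5421.5 and 5791, ratio 1.07). The distal region scored 1114 and 671, 1.76-fold later.

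Over both windows 22 regions had a peak in either Oct4 F9 list, in lists cut to 64582 peaks, and 18 were placed later and 4 earlier after RA. The median ratio was 1.77, against 1.13 over 38694 regions of the genome. With a median above 1, later places were the more common over the genome too, and their share was not computed. The upstream region of Fgf4 was the only one of the 22 that moved 10-fold or more, later, as did 1.93% of the genome's regions, and none moved so far earlier, as did 0.946%. Of merged sites, 0.569% moved that far later and 0.697% earlier, and neither main site did. There was 1 library of each kind, so no replicate spread exists for these ratios. Of these 22, 16 had a peak in both lists. A missing peak, or one beyond the cut, was set 1 place past the end of the cut list. The neighbouring Utf1 regions chr7:147135425-147136912 and chr7:147137064-147137215 took the same wide F9 peak, so they are not separate.

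Sox17 in F9+RA cells had no peak at any of the 15 Fgf4 regions and peaks at 3 of the 8 Utf1 regions, while it had one at 30.1% of the genome's shared regions. The Utf1 peaks were those over the start (score 144, place 4958.5), far upstream (84.0, place 12969.5) and at the most distant region (86.2, place 12273). The Utf1 downstream region, where Sox17EK in ES cells was near the top of its lists, had none. In the Fgf4 window this list had 2 peaks, of score 55.0 and 77.0, at chr7:152062984-152063263 and chr7:152080695-152081026, where no other library had one. A missing peak means a signal below the caller's threshold at an unknown depth, which is not the same as no binding.

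**Figure D4:**
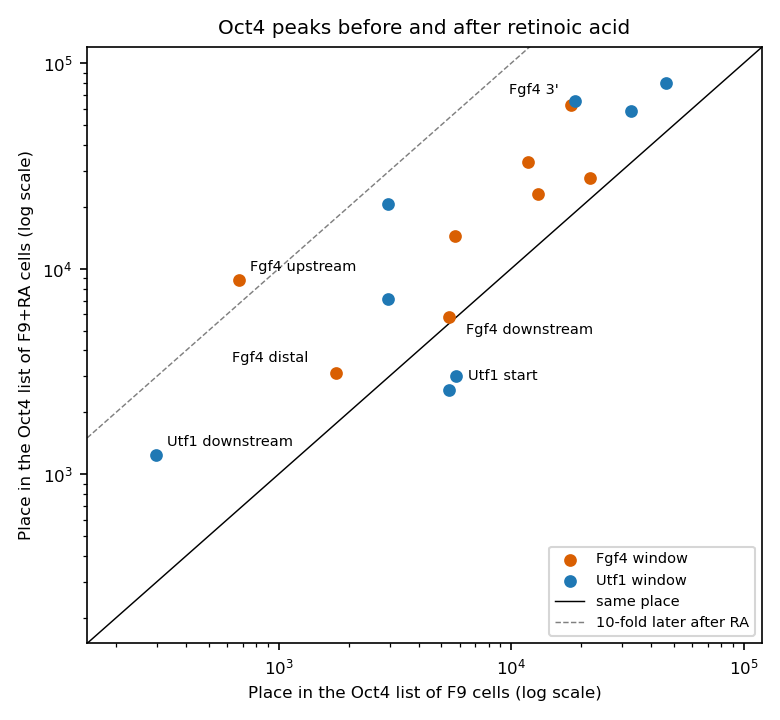
Place of Oct4 peaks in F9 cells (x axis) and in F9+RA cells (y axis), both on log scales, for the 16 shared regions of the windows of Fgf4 (orange) and Utf1 (blue) with a peak in both lists. The solid line marks equal places and the dashed line a 10-fold later place after RA; the Fgf4 upstream region lies beyond the dashed line (13.1-fold), the Utf1 downstream region between the lines (4.18-fold) and the Utf1 start below the solid line.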

How the data were processed

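Deposited were 18 lists of peaks, 1 per library, with chromosome, start, end, a MACS peak name and a score, with mm9 as the build, per the submitters' processing notes. The authors' score was read as the caller's p-value on a scale of 10 times −log10, from its lowest values near 50 in every list, and no source used here states it. For the aligner, the caller's settings and its control, the entry is "not given in the sources used here", and depth is unknown. Starts were taken to count from 0 and are printed counting from 1. The 2 mock libraries of the 20 samples were not analysed here.

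Peaks were ranked by score within each list, and merged into sites where they overlapped by 1 bp or more. The main site of each gene was the one with peaks in the most libraries, and every site with 3 or more libraries was described. Shared regions, whose runs were joined if less than 50 bp apart, were added after the data were seen, as was the choice of the 5 regions whose alternatives were computed. Mean log10 places entered an exact two-sided permutation test over libraries at all sites with a peak in a shortened list, with Benjamini-Hochberg adjustment and a threshold of 0.05. The tests were checked on simulated data. The alternatives were whole lists, ties at the highest rank number, the 1000 strongest peaks alone, scores of 100 or more, midpoints within 200 bp, places without logarithm, a replicate block, each library left out, and the Sox17 ES lists left out with longer lists. The genes, windows and lists were chosen with earlier results of these data known. Replicates shared at most 1 identical interval. No mm9 genome was used here, so enhancer sequence is not shown. Python 3.11.15, NumPy 2.4.6, pandas 2.3.3, SciPy 1.17.1, statsmodels 0.14.6 and matplotlib 3.10.9 were used.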

Additional observations from a re-analysis of the deposited data

Results flagged for a closer look

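For Oct4 at the Fgf4 3′ region, the lysine minus glutamate difference in log10 place had opposite signs in the 2 protein backbones. It was -0.41 between the Sox2 and Sox2KE lines, with both Sox2 libraries placed earlier, and 0.07 between the Sox17EK and Sox17 lines, with both Sox17EK libraries placed later, a difference of -0.483. That contrast between backbones was not tested, and a single Oct4 library stands for Sox17. Of 14 sets of libraries checked for a single library far from the rest of its group, none had one. That does not mean that no group rested on 1 library. In lists cut to 5836 peaks, 1 lysine Sox library alone had a peak at the Fgf4 downstream site, and 1 glutamate Sox library alone at the Utf1 site. The others of each group were set 1 place past the end.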

How the results depend on the processing

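The 4 tests of the main sites were recomputed in 58 ways, and 57 kept their direction. In 20 of them too few libraries or arrangements were left for any p under 0.05, and the other 38 stayed above the threshold. The exception in direction was the Sox test at the Fgf4 downstream site, which turned to -0.21 with the Sox17 ES lists left out and the other lists cut at 23924 peaks. With single libraries left out, the log10 differences ranged from 0.10 to 0.33 (Fgf4, Sox), from -0.85 to -0.43 (Utf1, Sox), from 0.10 to 0.33 (Fgf4, Oct4) and from -1.26 to -0.73 (Utf1, Oct4). The 10 tests of the 5 regions were recomputed in 145 ways, of which 50 could not reach a p under 0.05 and 88 of the other 95 kept direction and side. Those that turned direction were the Sox test of the region 13 kb upstream of the Fgf4 3′ region (-0.047 with scores of 100 or more, -0.040 without Sox17 ES B, up to 0.125 with other libraries left out) and, at the 3′ region, the Sox test (-0.024 without Sox17 ES A, up to 0.127) and the Oct4 test (0.15 with midpoints within 200 bp). An unadjusted p of 0.0286 was reached by the Utf1 downstream region for Sox with midpoints (-0.72), and by the distal Fgf4 region for Sox without Sox2 ES A (-0.51) and for Oct4 on places themselves (-11425). In each case the cause was not tested. Where no library had a peak among its 1000 strongest, that alternative gave no value.

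The replicate letters were also used as a block. Differences of A and B correlated between groups from -0.126 to 0.0246 for Sox, so the letters were not taken to pair the Sox libraries. For Oct4 the range was -0.0304 to 0.300. The highest value was that between the Sox2 and Sox2KE lines, whose letters may in part pair the libraries. The main Oct4 tests did not use the letters. With the replicate block the exact permutation p was 0.5 (Fgf4 site, Sox), 0.222 (Utf1 site, Sox), 0.222 (Fgf4 site, Oct4) and 0.111 (Utf1 site, Oct4), around unchanged differences of 0.24, -0.62, 0.18 and -0.94, and 0.0556 for Oct4 at the region 13 kb upstream of the Fgf4 3′ region (-0.32), which thereby lost its unadjusted pass, as the block's 18 arrangements allow no lower p.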
